A study of Mus musculus with 4 samples.

Results

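Of the 55573 genes in the count table, 10 transcripts of macrophages and platelets (the members below) were followed through RIP-seq libraries of embryonic mouse cells. The macrophage members are C1qa, C1qb and C1qc, Csf1r, Mrc1, Tyrobp and Fcer1g, and the platelet members are Pf4, Ppbp and Itgb3. They were chosen by name with their counts in these same libraries already known, so their own values are a description. Where the gene test over all genes is mentioned for them, it is to set them beside its background, and nothing is read from it. RIP-seq (RNA immunoprecipitation sequencing) reads the RNA that an antibody against a protein holds on beads, and an IgG antibody with no chosen target gives the background. The cells came from wild-type C57BL/6 embryos at E10.0 (embryonic day 10.0). They were taken from the caudal (tail-side) part of the embryo and sorted for Cd31, a surface protein of endothelial cells that platelets and some blood cells also carry. The 2 libraries of the Runx1 antibody held 1675488 and 1887301 gene counts and the 2 libraries of IgG held 3843318 and 2482045. No label ties a library to its own embryos, sort or number of cells. P-values here therefore speak only of the spread among these 4 libraries, and that spread may be technical.

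Macrophages are the first white blood cells of the mouse embryo. They arise from the yolk sac and spread through the tissues with the circulation, where they take up dying cells. Megakaryocytes, the source of platelets, appear in the same early waves of blood formation. RUNX1, a DNA-binding factor, is needed for definitive blood cells to form and for megakaryocytes to mature. Both cell types share tissue with the endothelium, and a sort for Cd31 can carry them along.

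Among these 10 transcripts, C1qa and Ppbp were counted almost only with the Runx1 antibody, C1qb was counted mostly with IgG, and Csf1r was high in 1 Runx1 library alone. Mrc1 and Itgb3 had the most counts and lay close to the same level in 3 of the 4 libraries. Tyrobp, Fcer1g and Pf4 were near the limit of detection. Of the 10 members 4 had counts in all 4 libraries, and 7 reached the low-count filter of the gene test. In edgeR, 0 of these 7 were called at a false discovery rate of 0.05, where 0.645% of the 12401 genes tested were. At an unadjusted p under 0.05 there were 3 of 7 (C1qa, Csf1r and Ppbp), beside 14.2% of all genes tested. DESeq2 called 1 of the 7 (Csf1r, beside 4.76% of genes) and limma-voom 0 (beside 1.79%). CPM is counts per 1e6 gene counts. In CPM the libraries of the antibodies did not overlap for 3 of the 7 members tested (C1qa, C1qb and Ppbp). Of all genes tested 45.4% did not overlap, and the members not tested overlapped. Since the members were chosen with this contrast known, nothing follows from these shares.

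**Figure D1:**
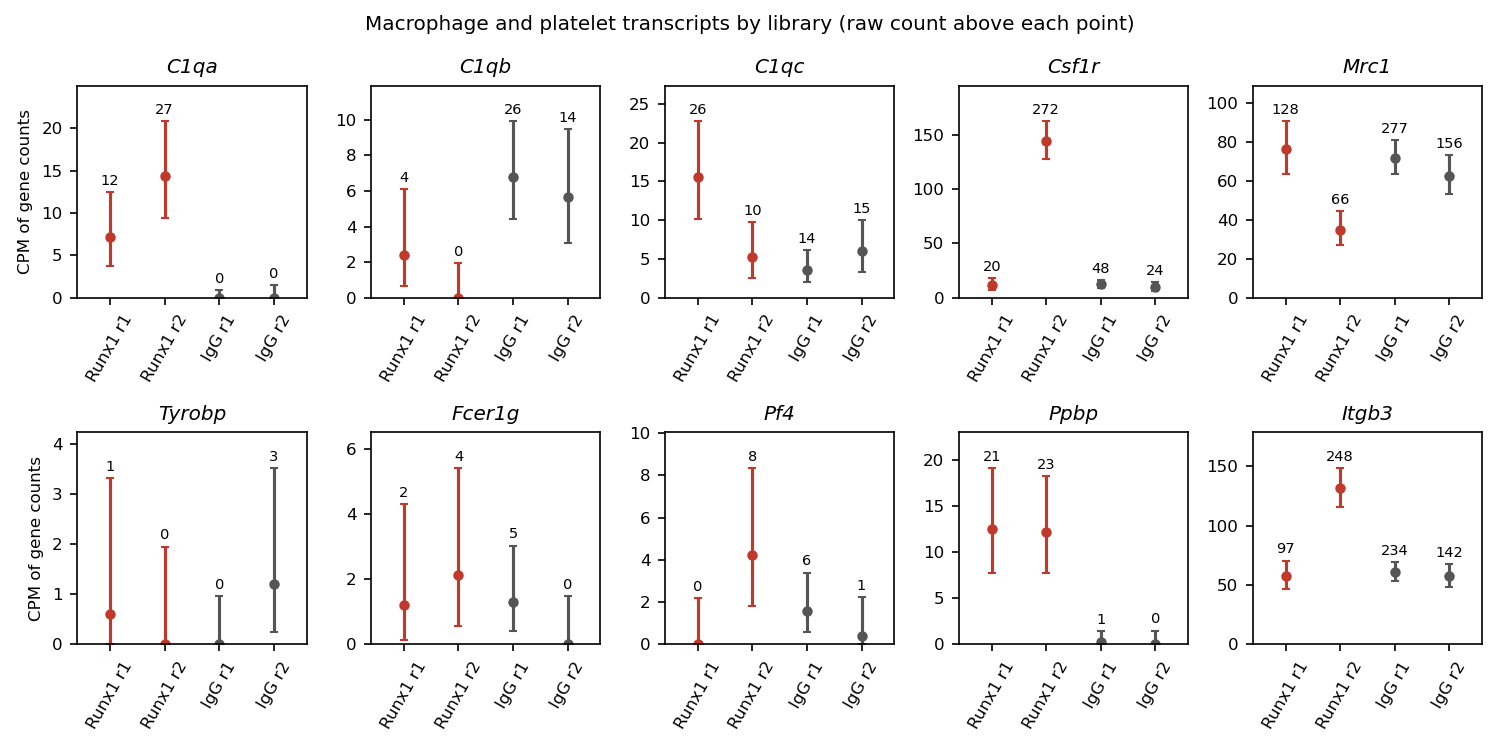
Level of each transcript in CPM (counts per 1e6 gene counts) in the 4 libraries (r1 and r2, replicates 1 and 2; red, Runx1 antibody; grey, IgG), with exact 95% Poisson intervals of the count and the raw count printed above. C1qa and Ppbp stand at 0 or 1 count in the IgG libraries, and Csf1r and Itgb3 are highest in replicate 2 of the Runx1 antibody.

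C1qa, C1qb and C1qc encode the A, B and C chains of C1q. C1q is the part of the complement system that recognises antibody-coated or dying cells, and tissue macrophages make most of it. Each C1q molecule needs all 3 chains. The genes lie side by side on the minus strand of chromosome 4 (mm10, GENCODE M21). C1qa spans 136895917 to 136898803, C1qc spans 136889804 to 136893065 and C1qb spans 136880129 to 136886187, with 2851 bases between C1qa and C1qc and 3616 between C1qc and C1qb. No exon of another gene overlaps theirs, and no other gene carries a stretch of at least 200 bases at 95% identity.

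The coding sequences of the chains are related, so the longest run of bases that each pair shares is shown, to let a reader judge whether reads could pass from one chain to another. The shared run stands in capitals within 20 bases of coding sequence on either side, 5′ to 3′, from the GENCODE M21 transcripts.
C1qb, coding bases 470 to 524: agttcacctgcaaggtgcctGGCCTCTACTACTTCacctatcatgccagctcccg
C1qc, coding bases 473 to 527: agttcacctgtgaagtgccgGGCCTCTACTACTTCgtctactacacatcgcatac
C1qa, coding bases 678 to 729: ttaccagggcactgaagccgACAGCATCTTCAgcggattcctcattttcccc
C1qb, coding bases 696 to 747: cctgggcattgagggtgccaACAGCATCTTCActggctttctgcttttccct
C1qa, coding bases 134 to 184: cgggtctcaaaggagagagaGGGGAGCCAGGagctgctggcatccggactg
C1qc, coding bases 299 to 349: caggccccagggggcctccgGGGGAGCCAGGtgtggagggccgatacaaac
The longest run in common was 15 bases for C1qb and C1qc, 12 for C1qa and C1qb and 11 for C1qa and C1qc. In global alignments 63.3% (C1qa and C1qb), 65.1% (C1qa and C1qc) and 64.1% (C1qb and C1qc) of the aligned coding bases were identical.

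C1qa had 12 and 27 counts in the Runx1 libraries, against 0 and 0 in the IgG libraries. In CPM these were 7.16 (exact 95% interval 3.70 to 12.5) and 14.3 (9.43 to 20.8). The exact upper limits of 0 counts were 0.960 and 1.49 CPM in the IgG libraries, where 3 counts are 0.781 and 1.21 CPM. Both Runx1 libraries were thus above both IgG libraries. With a floor of 3 counts set for the IgG group, the bound was 23.1-fold more C1qa per gene count in the Runx1 libraries. Per spike-in count it was 9.22-fold more. The exact 95% interval of the ratio per gene count starts lower, at 17.9. Spike-ins are artificial RNAs (ERCC) added to a sample. They took 0.0356% and 0.0378% of the Runx1 counts and 0.0129% and 0.0175% of the IgG counts, so that scaling to them lowers each ratio. On that scale C1qa, Csf1r and Ppbp stayed above 1 and C1qb and Mrc1 below, while C1qc, Fcer1g, Pf4 and Itgb3 turned from above 1 to below. The bound for C1qa per gene count was 9.06 without replicate 1 of IgG and 14.0 without replicate 2 of IgG. As C1qa had 0 counts in both, these 2 values follow only from the floor and the IgG total left. Without replicate 2 of the Runx1 antibody the bound was 15.1. Among the 4110 other genes with 19.5 to 78 counts in all, 6.50% had no count in either library of one antibody.

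C1qb ran the other way. Its counts were 4 and 0 for the Runx1 antibody, against 26 and 14 for IgG, or 2.39 and 0 against 6.76 and 5.64 CPM. Both Runx1 libraries were below both IgG libraries, and the ratio of IgG to Runx1 was 5.63 (exact 95% interval 2.04 to 21.7). Taken as Runx1 to IgG this was 0.178, and 0.378 without replicate 2 of the Runx1 antibody. The Runx1 interval of replicate 1 (0.650 to 6.11 CPM) still reached into those of the IgG libraries (4.42 to 9.91 and 3.08 to 9.46 CPM). C1qc had 26 and 10 counts against 14 and 15, or 15.5 and 5.30 against 3.64 and 6.04 CPM. Its groups overlapped. The ratio of Runx1 to IgG was 2.20 (1.31 to 3.73) per gene count and 0.880 per spike-in count, so that its direction turned with the scaling, and it was 1.16 per gene count without replicate 1 of the Runx1 antibody.

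The summed C1q counts were 42 and 37 in the Runx1 libraries against 40 and 29 in the IgG libraries. This was 25.1 and 19.6 against 10.4 and 11.7 CPM, higher in both Runx1 libraries, but 7.05 and 5.19 against 8.10 and 6.68 per 100 spike-in counts, where the groups overlapped. The chains that made up these sums differed. C1qa was 28.6% (exact Clopper-Pearson 95% interval 15.7 to 44.6) and 73.0% (55.9 to 86.2) of the C1q counts with the Runx1 antibody. In the IgG libraries its share was 0 of 40 and 0 of 29 counts, with upper limits of 8.81% and 11.9%. C1qb was 9.52% (2.66 to 22.6) and 0% (0 to 9.49) with the Runx1 antibody, against 65.0% (48.3 to 79.4) and 48.3% (29.4 to 67.5) with IgG. C1qc was present in every library, at 61.9%, 27.0%, 35.0% and 51.7% in the order Runx1 replicates 1 and 2, then IgG replicates 1 and 2. The shares within C1q do not depend on the library total or on the spike-ins. The Runx1 replicates differed between themselves in C1qa and C1qc, since their intervals for each chain did not overlap.

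**Figure D2:**
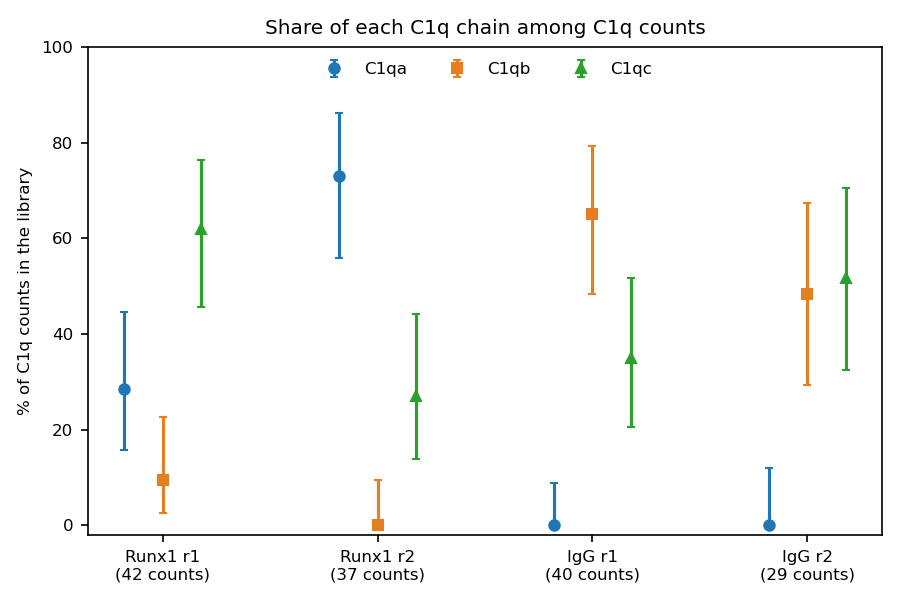
Share of each C1q chain (y axis, % of C1q counts) in the 4 libraries (x axis, with the summed C1q counts), with exact Clopper-Pearson 95% intervals. C1qa is 28.6% and 73.0% with the Runx1 antibody and 0 with IgG, and C1qb is 65.0% and 48.3% with IgG.

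Csf1r encodes the receptor tyrosine kinase through which CSF1 and IL34 keep macrophages alive. It lies on chromosome 18 (61100598 to 61132149, plus strand), and 873 bases of its exons overlap exons of Hmgxb3 on the opposite strand. Csf1r had 20 and 272 counts in the Runx1 libraries, against 48 and 24 in the IgG libraries. In CPM these were 11.9 (7.29 to 18.4) and 144 (128 to 162) against 12.5 (9.21 to 16.6) and 9.67 (6.20 to 14.4). A single library, replicate 2 of the Runx1 antibody, stood apart, and the other 3 lay within each other's intervals. The ratio of Runx1 to IgG was 7.20 (5.55 to 9.45) with all libraries and 1.05 without that replicate. Without each other library in turn it was 6.56 to 12.7, and per spike-in count it was 2.88. That 1 library held 80.9% of the sum of the 4 CPM values, and in the 4519 other genes with 182 to 728 counts the highest such share was 79.7%. Csf1r was chosen with these counts known, so nothing follows from that rank. For the other members, 6.67% (Itgb3) to 85.1% (Fcer1g) of genes of like total had such a share at least as high. Hmgxb3, whose reads cannot be told from those of Csf1r over the shared bases without strand, had 42 and 36 counts against 102 and 20. Its level in the library where Csf1r was high was 19.1 CPM, beside 8.06 to 26.5 CPM in the others.

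Mrc1 encodes the mannose receptor CD206, which takes up glycoproteins and microbes and is made by many tissue macrophages and by some endothelial cells. It lies on chromosome 2 (14229392 to 14332057, plus strand). Mrc1 had 128 and 66 counts in the Runx1 libraries, against 277 and 156 in the IgG libraries, or 76.4 and 35.0 against 72.1 and 62.9 CPM. The groups overlapped, with replicate 2 of the Runx1 antibody the low library. The ratio of Runx1 to IgG was 0.795 (0.668 to 0.944) per gene count, 1.12 without that replicate and 0.318 per spike-in count. The replicate in which Csf1r was highest was thus the one in which Mrc1 was lowest.

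Tyrobp (DAP12) and Fcer1g (the Fc receptor gamma chain) encode small membrane adaptors with a tyrosine motif, the ITAM, through which many myeloid receptors signal. They lie on chromosomes 7 (30413760 to 30417585) and 1 (171229572 to 171234365). Tyrobp had 1 and 0 counts in the Runx1 libraries, against 0 and 3 in the IgG libraries, so that both groups were at or under 3 counts and no ratio is given. Fcer1g had 2 and 4 against 5 and 0 counts, or 1.19 and 2.12 against 1.30 and 0 CPM. Its ratio of 2.13 had an interval of 0.542 to 8.82 and turned to 0.851 per spike-in count. For both adaptors a difference between the antibodies was not detectable at this depth.

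Pf4 (CXCL4) and Ppbp (CXCL7, platelet basic protein) are CXC chemokines stored in the alpha granules of platelets. They are neighbours on the plus strand of chromosome 5, Ppbp at 90768518 to 90770063 and Pf4 at 90772435 to 90773383, with 2371 bases between them. The longest run that their coding sequences share is 11 bases, shown in capitals with the 20 coding bases on either side, again to show how far reads of one could match the other.
Pf4, coding bases 218 to 268: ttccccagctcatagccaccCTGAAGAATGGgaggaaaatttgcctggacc
Ppbp, coding bases 239 to 289: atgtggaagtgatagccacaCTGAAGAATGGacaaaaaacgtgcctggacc
Ppbp had 21 and 23 counts in the Runx1 libraries, against 1 and 0 in the IgG libraries. In CPM these were 12.5 (7.76 to 19.2) and 12.2 (7.73 to 18.3) against 0.260 (0.00659 to 1.45) and 0 (exact upper limit 1.49). Both Runx1 libraries were above both IgG libraries, and they agreed within counting error. The ratio of Runx1 to IgG was 78.1 with a wide interval of 13.3 to 3155, since it rests on 1 IgG count, and it was 31.2 per spike-in count. Without replicate 1 of IgG, which held that count, the bound for Ppbp from a floor of 3 counts was 10.2. This bound is not an exact lower limit. Without replicate 2 of IgG its ratio was 47.5. Pf4 had 0 and 8 against 6 and 1 counts, or 0 and 4.24 against 1.56 and 0.403 CPM. Its groups overlapped, and its ratio was 2.03 (0.643 to 6.57) per gene count and 0.810 per spike-in count. The ratio per gene count was 5.57 without replicate 1 of IgG and 1.44 without replicate 2 of IgG. It was 3.83 without replicate 1 of the Runx1 antibody and 1.62 without replicate 2. The neighbouring chemokine genes thus had different patterns, with Ppbp even across the Runx1 replicates and Pf4 in only 1 of them.

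Itgb3 encodes integrin beta 3. It pairs with the product of Itga2b to form the fibrinogen receptor of platelets, and with that of Itgav in endothelial and other cells. It lies on chromosome 11 (104608000 to 104670476, plus strand). Itgb3 had 97 and 248 counts in the Runx1 libraries, against 234 and 142 in the IgG libraries, or 57.9 and 131 against 60.9 and 57.2 CPM. The groups overlapped, and 3 libraries lay within each other's intervals while replicate 2 of the Runx1 antibody was high. The ratio of Runx1 to IgG was 1.63 (1.40 to 1.89), or 0.974 without that replicate and 0.650 per spike-in count. Its partner Itga2b stood at 36.6 ± 17.2 CPM (SD, n = 2) with the Runx1 antibody and 55.2 ± 6.24 with IgG, or -0.61 ± 0.49 (SE) as a log2 fold change, with an edgeR adjusted p of 0.650. Itgav stood at 79.9 ± 22.7 against 134 ± 23.9 CPM, or -0.77 ± 0.33 on the log2 scale (adjusted p = 0.341 in edgeR), and neither passed the test.

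**Figure D3:**
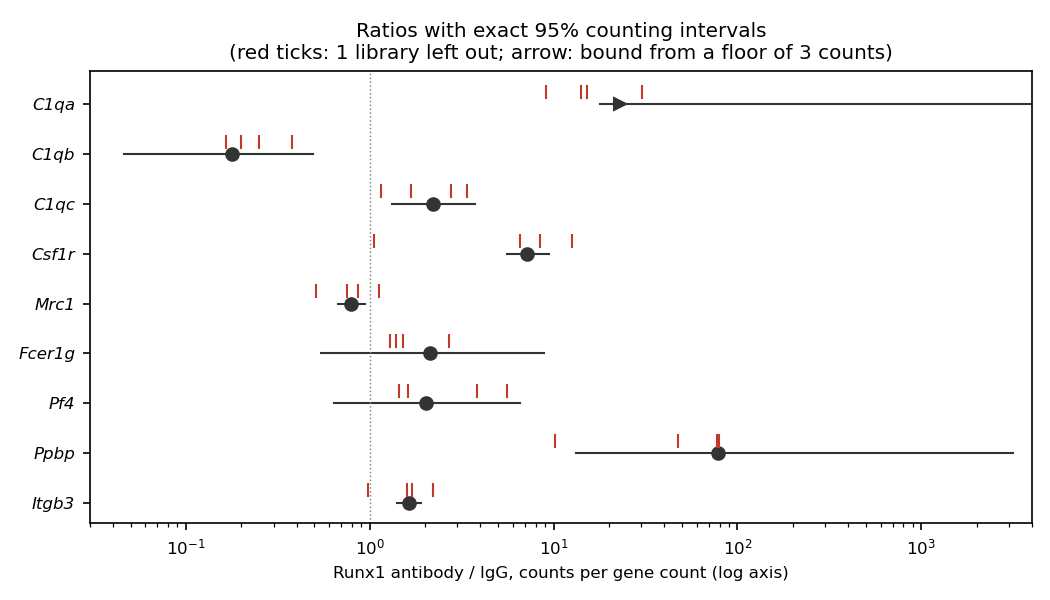
Ratio of the Runx1 antibody to IgG in counts per gene count (log axis) for the 9 members for which a ratio can be given, with exact 95% counting intervals. Red ticks give the ratio with 1 library left out, and the arrow marks the bound for C1qa from a floor of 3 counts. Csf1r and Itgb3 fall to 1.05 and 0.974 without 1 of the Runx1 libraries. All ticks of C1qa and the lowest tick of Ppbp (10.2) are bounds set by the same floor.

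The intervals above cover counting error only, and the replicate libraries show how much more there is. For each member and antibody, the share of its counts in replicate 1 was set against replicate 1's share of all gene counts (47.0% of the Runx1 pair, 60.8% of the IgG pair). With the Runx1 antibody 5 of 10 members fell outside their exact 95% interval, namely C1qc, Csf1r, Mrc1, Pf4 and Itgb3. With IgG 0 of the 9 with counts did. At very few counts no split can fall outside. This holds at 1 count for Ppbp with IgG and for Tyrobp with the Runx1 antibody. It also holds for Tyrobp with IgG (3 counts) and for C1qb with the Runx1 antibody (4 counts). The numbers for the antibodies are therefore not compared. Csf1r was the furthest, with 6.85% of its Runx1 counts in replicate 1 (4.23 to 10.4). Mrc1 had 66.0% there (58.8 to 72.6), C1qc had 72.2% (54.8 to 85.8) and Itgb3 had 28.1% (23.4 to 33.2). Ppbp, at 47.7% (32.5 to 63.3), lay on the depth share. Of the other genes with 0.5 to 2 times as many Runx1 counts as Csf1r, Mrc1 or Itgb3, 56.9 to 58.2% were outside as well. This share was 49.7% for C1qc and 36.8% for Pf4. For the members inside it ran from 0% (Tyrobp) to 51.0% (Ppbp). Of the genes with IgG counts like those of Mrc1 or Itgb3, 58.5 to 58.9% were outside, so the even split of these members between the IgG libraries was the less common case.

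**Figure D4:**
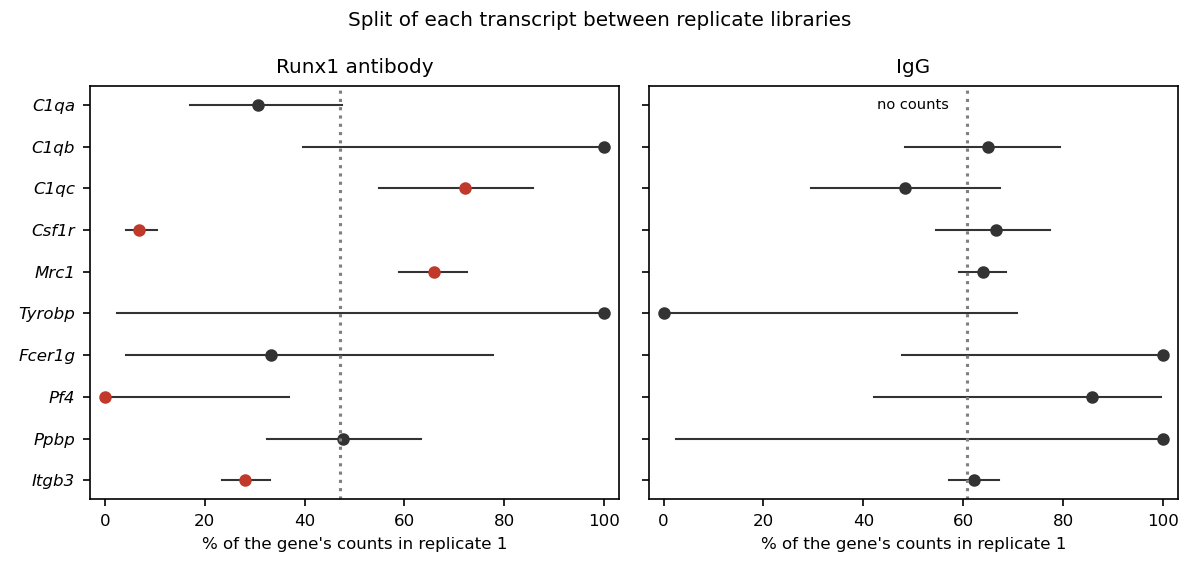
Share of each member's counts that fell in replicate 1 (x axis, %), for the Runx1 antibody (left) and IgG (right), with exact 95% intervals. The dotted line is replicate 1's share of all gene counts, 47.0% and 60.8%; red points (5 of 10 on the left, none on the right) have intervals that do not reach it.

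Levels of different genes can be ordered only per length. In mean CPM per kilobase of the longest transcript over the 4 libraries (± SD, n = 4), Itgb3 was at 13.3 ± 6.29, Mrc1 at 11.5 ± 3.46 and Csf1r at 9.48 ± 14.1. C1qc was at 6.34 ± 4.45, Ppbp at 5.77 ± 6.52, C1qa at 5.16 ± 6.59 and C1qb at 3.40 ± 2.84. Pf4 was at 2.64 ± 3.25, Fcer1g at 1.69 ± 1.28 and Tyrobp at 0.756 ± 0.968. No neighbours in this order were further apart than their spread over libraries. The order pools both antibodies and is not the same in each. Csf1r was at 30.7 CPM per kilobase in replicate 2 of the Runx1 antibody and at 2.06 to 2.66 in the other libraries, and C1qa was at 0 with IgG. Transcript lengths ran from 588 bases (Pf4) to 5784 (Itgb3) and GC content from 42.4% (Ppbp) to 59.5% (C1qa). Genes with the most similar log2(CPM + 1) values over the 4 libraries included Pold1 and Dgkh for Mrc1 (distances 0.26 and 0.28) and Zdhhc7, Adam17 and Atp6v0a1 for Itgb3 (0.21, 0.22 and 0.28).

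Other macrophage genes did not pass the gene test in either direction. Of 35 such genes, 4 had no count in any library and 19 were tested. Of these 0 rose and 0 fell in edgeR, 0 in DESeq2 and 0 in limma-voom, while 1 was at an unadjusted edgeR p under 0.05. Of all genes tested 14.2% were under that level, the background for this count in each list below. The median log2 fold change of the 19 macrophage genes was 0.43, beside 0.027 over all genes tested. The most abundant was Sirpa, an inhibitory receptor that neurons also carry, at 93.3 ± 23.3 CPM in the Runx1 libraries against 146 ± 21.6 in the IgG libraries (edgeR adjusted p = 0.362). Next came the actin-bundling gene Lcp1 at 97.2 ± 31.1 against 65.3 ± 6.94 CPM (adjusted p = 0.568) and the lysosomal membrane gene Laptm5 at 58.8 ± 24.0 against 33.4 ± 1.68 (0.515). Coro1a, a regulator of actin in white blood cells, stood at 54.6 ± 4.59 against 36.7 ± 1.14 CPM (0.644). Ptprc (CD45), the general marker of white blood cells, stood at 24.1 ± 5.60 against 34.0 ± 11.7 CPM (0.758).

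Several defining macrophage markers were listed at 0 or were counted mostly in 1 library. Fcgr2b, Timd4, Cd163 and Ms4a7 had no count in any library, where 3 counts correspond to 0.781 to 1.79 CPM. Adgre1 (F4/80) had 0 and 40 counts in the Runx1 libraries, against 3 and 2 in the IgG libraries. Lysozyme Lyz2 had 60 and 0 against 1 and 20 counts (named after its values were seen). Adgre1 was thus highest in the library in which Csf1r was highest, and Lyz2 was absent from it. Of the 31 macrophage genes outside the members that had counts, 10 had their highest CPM in that library (32.3%, beside 28.5% of all genes tested). The summed CPM of the list was 638 and 685 in the Runx1 libraries against 466 and 586 in the IgG libraries. This sum was not taken per spike-in count, a scale that lowers each ratio of Runx1 to IgG. In a pull-down from sorted cells, fewer cells of a type, less RNA per cell and less RNA held by the beads cannot be told apart.

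**Figure D5:**
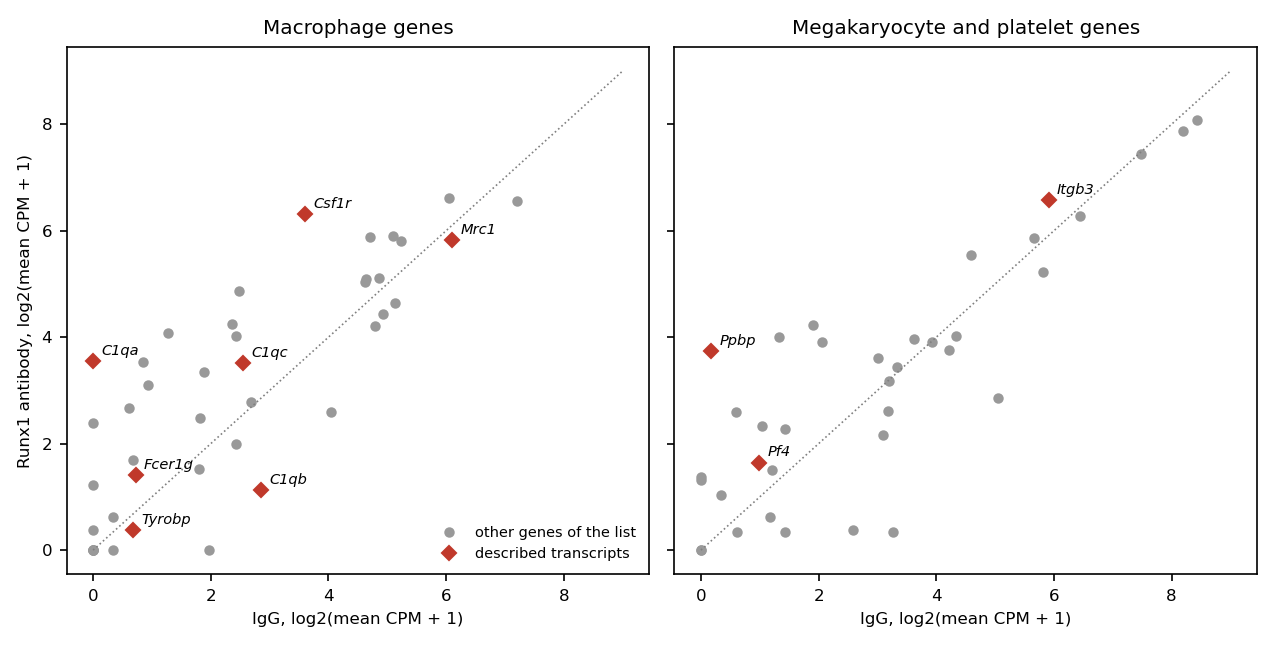
Mean level with the Runx1 antibody (y axis) against IgG (x axis), both as log2(mean CPM + 1), for macrophage genes (left) and megakaryocyte and platelet genes (right); red diamonds are the 10 members, grey points the other listed genes, and the dotted line marks equal levels. C1qa and Ppbp lie at the left edge and C1qb lies below the line.

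Receptors and kinases that work with the ITAM adaptors were mostly too few in counts to test. Of 24 such genes, 4 had no count, 7 were tested and 0 rose or fell in edgeR, DESeq2 or limma-voom, with 1 at an unadjusted edgeR p under 0.05. The kinase gene Syk stood at 62.0 ± 6.01 against 79.1 ± 55.5 CPM (edgeR adjusted p = 0.811), Plcg2 at 27.8 ± 39.2 against 13.7 ± 14.2 (0.846), Lyn at 22.4 ± 8.04 against 8.02 ± 3.37 (0.436) and Vav1 at 1.49 ± 2.11 against 18.2 ± 9.57 (0.270). Of 12 ligands and signalling partners of CSF1R, 10 were tested and 0 passed in edgeR, DESeq2 or limma-voom, with 1 at an unadjusted edgeR p under 0.05. The ligand genes had few counts, Csf1 0 and 17 with the Runx1 antibody against 3 and 0, and Il34 7 and 0 against 2 and 3. The most abundant were the kinase gene Fyn at 276 ± 69.6 against 214 ± 5.47 CPM (edgeR adjusted p = 0.568) and the ubiquitin ligase gene Cbl at 177 ± 54.1 against 192 ± 32.5 (0.869).

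Of 22 symbols listed for other complement genes, 21 were matched and 7 were tested. Of these 0 passed in edgeR, DESeq2 or limma-voom, with 1 at an unadjusted edgeR p under 0.05. C1ra and C1s1, the proteases that C1q activates, had 1 and 0 against 0 and 0 counts and 1 and 1 against 2 and 1. The most abundant were Cd93, a receptor of endothelial and myeloid cells, at 66.5 ± 13.9 against 65.9 ± 8.33 CPM (edgeR adjusted p = 0.993) and Cr1l, a regulator of complement, at 35.7 ± 11.7 against 41.6 ± 20.7 (0.901). Cd59a, which protects cells from complement, stood at 1.92 ± 1.03 against 18.6 ± 9.77 CPM (0.197) and properdin Cfp had 8 and 52 against 6 and 11 counts (0.388).

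Of 34 other megakaryocyte and platelet genes, 2 had no count and 20 were tested. In edgeR, DESeq2 and limma-voom 0 rose and 0 fell, with 2 higher and 1 lower at an unadjusted edgeR p under 0.05. Their median log2 fold change was -0.13. The most abundant are shared with endothelium: Vwf at 271 ± 20.1 against 346 ± 7.77 CPM (edgeR adjusted p = 0.380), Thbs1 at 232 ± 47.2 against 290 ± 2.41 (0.523), the thrombin receptor gene F2r at 172 ± 18.5 against 177 ± 8.45 (0.945) and Fli1 at 76.2 ± 17.1 against 85.7 ± 2.75 (0.862). The von Willebrand receptor gene Gp1ba had 0 and 4 against 2 and 0 counts, and Gp1bb and Selp had none. The summed CPM of this list was 1013 and 1104 in the Runx1 libraries against 1218 and 1163 in the IgG libraries, and most of each sum came from Vwf, Thbs1, F2r and Fli1. Of 16 chemokines, chemokine receptors and neighbours of Pf4 and Ppbp, 6 had no count, 4 were tested and 0 passed in edgeR, DESeq2 or limma-voom (0 at an unadjusted p under 0.05). Cxcl12 stood at 106 ± 24.0 against 88.6 ± 22.2 CPM (edgeR adjusted p = 0.840) and its receptor gene Ackr3 at 7.26 ± 0.978 against 14.6 ± 2.20 (0.650).

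Of 25 other integrin subunits, 19 were tested and 0 passed in edgeR, DESeq2 or limma-voom, with 1 higher and 2 lower at an unadjusted edgeR p under 0.05. Itga6 stood at 218 ± 47.3 against 339 ± 52.3 CPM (edgeR adjusted p = 0.227), Itgb1 at 224 ± 57.0 against 240 ± 40.1 (0.879) and Itgb5 at 166 ± 74.6 against 91.5 ± 5.70 (0.326). Of 14 relatives of Mrc1 and scavenger receptors, 5 had no count, 5 were tested and 0 passed in edgeR or limma-voom. Stab1, a scavenger receptor of macrophages and endothelium, stood at 208 ± 30.1 against 350 ± 0.847 CPM, or -0.77 ± 0.20 on the log2 scale (edgeR adjusted p = 0.136), and was called lower by DESeq2. Mrc2 stood at 90.0 ± 36.9 against 88.9 ± 17.9 CPM (0.998).

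Markers of the sorted cells were counted in each library. Pecam1, which encodes CD31, stood at 98.0 ± 6.85 CPM in the Runx1 libraries against 89.6 ± 14.5 in the IgG libraries, and Cdh5 at 90.4 ± 14.0 against 77.3 ± 15.8. All 17 endothelial markers had counts in all 4 libraries, with Kdr at 750 ± 123 against 868 ± 7.16 CPM. Runx1 RNA itself had 53 and 62 against 70 and 50 counts (edgeR adjusted p = 0.647). The antibody binds the protein, so this RNA is no check of the labels. Of the endothelial markers 16 were tested and 0 passed in edgeR, DESeq2 or limma-voom, with 1 at an unadjusted edgeR p under 0.05. Markers of other cell types were counted too. Summed over 14 erythroid markers, the level was 973 and 977 CPM in the Runx1 libraries against 609 and 556 in the IgG libraries, led by the embryonic globins Hbb-y (292 and 307 against 188 and 166 CPM, edgeR adjusted p = 0.160) and Hba-x (215 ± 6.57 against 105 ± 7.13, 0.111). DESeq2 called both globins higher and edgeR called 0 of the 11 erythroid markers tested, with 4 at an unadjusted p under 0.05. Per gene count the summed erythroid level was thus higher in both Runx1 libraries, as C1qa and Ppbp were. Hbb-y had 489 and 580 counts there beside 596 and 713 spike-in counts, against 721 and 413 beside 494 and 434 with IgG. Per spike-in count Hbb-y was thus lower in both Runx1 libraries, while the ratios of C1qa and Ppbp stayed above 1. The erythroid sum was not taken on that scale, and its part in those results was not tested.

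Of 20 granulocyte and mast cell markers, 6 were tested and 0 passed in edgeR, DESeq2 or limma-voom (0 at an unadjusted edgeR p under 0.05). Kit, a receptor of blood progenitors, mast cells and some endothelium, stood at 79.1 ± 41.0 against 92.9 ± 7.72 CPM, and Gata2 at 55.1 ± 5.29 against 54.6 ± 23.6. Of 14 lymphoid markers 11 had no count and 0 were tested; Cd4 had 0 and 0 against 17 and 0 counts, and Cd79a 0 and 2 against 0 and 3. Of 12 mesenchymal markers 11 were tested and 0 passed by these tools, with 2 higher and 2 lower at an unadjusted edgeR p under 0.05. Col3a1 stood at 493 ± 39.9 against 341 ± 4.67 CPM and Pdgfra at 387 ± 7.53 against 451 ± 29.9. Of 12 neural markers 10 were tested and 0 passed, while 3 were at an unadjusted edgeR p under 0.05 (1 higher, 2 lower). Nes stood at 436 ± 68.4 against 307 ± 5.59 CPM and Map2 at 74.7 ± 21.8 against 143 ± 4.05. Both lists were counted in every library, with summed mesenchymal levels of 1502 to 1751 CPM and neural levels of 631 to 787 CPM.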

How the data were processed

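RNA was measured by RIP-seq in 2 libraries of a Runx1 antibody and 2 of IgG, grouped by sample title. The authors deposited whole-number counts per Ensembl gene in 1 table, with all 4 value columns matched to a library by name. The tools named are STAR 2.7.3a, Salmon 1.1.0 and Trimmomatic 0.36, with the build mm10, per the submitters' processing notes. For annotation, strand and filters, the sources used here state nothing, nor whether the counts are counted reads or rounded estimates; if estimates, the exact intervals and the split between related chains are approximate. Per the labels' protocols, cDNA was made by an adapted single-cell method and no molecular identifiers are named, so intervals and floors of 3 counts cover counting error only.

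The 92 spike-in rows (ERCC) were kept out of totals and tests; 434 to 713 counts fell on them. Symbols came from GENCODE M21, which held 55480 of 55573 identifiers. Poisson, Clopper-Pearson and conditional ratio intervals are exact at 95% (scipy 1.17.1). The gene test was edgeR 4.0.16 (quasi-likelihood, TMM, filterByExpr with a minimum count of 10 and total of 15, no block, Benjamini-Hochberg over 12401 genes), two-sided, tested on simulated data, with DESeq2 1.42.0 and limma-voom 3.58.1 as alternatives. Standard errors are those implied by the test statistic. Near-identical copies were sought with blastn 2.17.0. Alternatives were other scalings (DESeq2 size factors, gene totals, spike-ins), other filters, a replicate block, a rate of 0.1 and each library left out. The members and all 14 lists of other genes were chosen with earlier results of these data known. Named from the lists were any called gene and the 4 (macrophage, platelet, ITAM, complement and integrin lists) or 2 most abundant, with Pecam1, Cdh5, Ptprc, Itga2b, Itgav, Adgre1, Gp1ba and Runx1, and the 3 genes nearest in level to Mrc1 and to Itgb3, of which 1 is not reported here; other genes named were picked after their values were seen.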

Additional observations from a re-analysis of the deposited data

How the results depend on the processing

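Ratios of the members rest on the scaling and on single libraries. Per spike-in count the median log2 fold change of all genes moved from 0.027 to -1.25. On that scale the ratio of Runx1 to IgG was 31.2 for Ppbp, 0.0709 for C1qb, 0.880 for C1qc and 0.851 for Fcer1g. It was 0.650 for Itgb3 and 0.318 for Mrc1, and the bound for C1qa from the floor was 9.22. The mean of the 2 CPM values gave 95.01 for Ppbp. With each library left out in turn the ratio ran from 1.05 to 12.7 for Csf1r and from 10.2 (a bound) to 79.3 for Ppbp. For C1qa the bounds ran from 9.06 to 30.2. Without an IgG library the C1qa bound changed only with the IgG total under the floor, as C1qa had 0 counts in both. Over 63 alternatives of the 9 ratios, 50 moved by less than the spread between replicates. The alternatives were unlike: with spike-in totals 7 of the 9 moved by more, and without mitochondrial and haemoglobin genes 0 of the 9.

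Over all genes edgeR called 38 higher and 42 lower, 35 and 36 with DESeq2 size factors, 38 and 29 with gene totals alone, and 95 to 248 and 81 to 352 with a library left out. There were 106 and 124 at a rate of 0.1, 19 and 3914 with spike-in scaling, 224 and 325 without a low-count filter, 125 and 159 with at least 10 counts in all libraries, 246 and 344 with DESeq2, and 102 and 120 with limma-voom. With a replicate block there were 2 and 0, and 0 members; replicate numbers shared no deviation (correlation 0.0057 across genes).

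Of the 7 members tested, 2 were called higher (C1qa, Ppbp) and 1 lower (Mrc1) with spike-in scaling, and 1 higher (Csf1r) with DESeq2. Without a low-count filter 2 of 10 were called higher (C1qa, Csf1r). With a library left out, the lone library of an antibody is assumed to vary like the other pair. Of the listed genes 0 were higher and 41 lower with spike-in scaling, 1 and 1 without a filter, 1 and 0 with the strict filter, 2 and 1 with DESeq2, and 0 to 3 and 0 to 5 with a library left out. The cause was not tested. Depth limits Tyrobp, Fcer1g and Pf4, with 4 to 15 counts in all.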
